A study of Mus musculus with 16 samples.

Results

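The 7 genes described here encode the kinases that act closest to the B cell receptor (BCR). They are *Btk*, *Tec*, *Syk*, *Lyn*, *Blk*, *Fyn* and *Csk*, taken by symbol from the 56691 genes of the count matrix, and each symbol had 1 row. They were measured in 637 single light zone (LZ) germinal center (GC) B cells sorted from the popliteal lymph nodes of 8 mice. The hosts were OVA-primed males that had received a mixture of B1-8hi BTKC481S and B1-8hi BTKWT B cells and were boosted with NP-OVA in the footpad. B1-8hi B cells carry a heavy chain with high affinity for the hapten NP. Acalabrutinib, an oral covalent inhibitor of BTK, was given to 5 hosts (A7, A8, A10, A11 and A12, 381 cells) and vehicle to 3 hosts (V5, V7 and V9, 256 cells). C481S exchanges the cysteine of BTK to which acalabrutinib binds for a serine, and every host, treated or not, held both genotypes. The name of a cell gives its host but not its genotype, so both genotypes of a host were pooled and a comparison of BTKC481S with BTKWT cells was not analysed here. In acalabrutinib hosts the cells are therefore a mixture of those whose BTK has this cysteine and those whose BTK lacks it. The host was the replicate in each comparison.

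When antigen binds the BCR, the Src-family kinases LYN, BLK and FYN phosphorylate the tails of the Igα and Igβ chains. SYK binds to these tails, is activated and phosphorylates the adaptor BLNK, onto which BTK and its relative TEC assemble with PLCγ2 to start calcium and NF-κB signaling. CSK works in the other direction: it phosphorylates the inhibitory tail tyrosine of the Src-family kinases and keeps them closed. LYN has a further role as a brake, because it also phosphorylates inhibitory receptors such as CD22. In GC B cells BCR signaling is damped by phosphatases, and the LZ is where B cells bind antigen and compete for T cell help.

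The residue changed in BTKC481S is shared by only some of the 7 kinases. In the coding sequences of GENCODE M21, 3 of the 7 genes have a cysteine codon at the place that lines up with codon 481 of *Btk*. Each line below gives 30 bases of the coding strand, 5′ to 3′, with the aligned codon in capitals.
*Btk*: atggctaatggcTGCctcttgaactacctg
*Tec*: atggaacggggcTGCcttctgaatttcctc
*Blk*: atggccagaggaTGCttgctggattttctg
*Lyn*: atggctaagggtAGTttgctggatttcctc
*Fyn*: atgagcaaaggaAGTttgcttgacttctta
*Csk*: atggccaaggggAGTttggtggactatctt
*Syk*: gcggagctggggCCGctcaacaagtacctg

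*Btk*, *Tec* and *Blk* read TGC, the codon of cysteine. *Lyn*, *Fyn* and *Csk* read AGT, a codon of serine, and *Syk* reads CCG, a codon of proline. On GRCm38 the codon lies at chrX:134549538-134549540 in exon 15 of *Btk* (minus strand), at chr5:72763687-72763689 in exon 14 of *Tec* (minus strand) and at chr14:63378540-63378542 in exon 10 of *Blk* (minus strand). It lies at chr4:3758248-3758250 in exon 10 of *Lyn* (plus strand), at chr10:39533636-39533638 in exon 11 of *Fyn* (plus strand), at chr9:57628245-57628247 in exon 10 of *Csk* (minus strand) and at chr13:52638219-52638221 in exon 10 of *Syk* (plus strand). Over the 90 residues on each side of the codon, the encoded protein of *Tec* was identical to that of *Btk* at 68.9% of the aligned residues, that of *Blk* at 45.7% and that of *Syk* at 38.7%. The Tec-family genes *Txk* and *Bmx* also have TGC there. The counts hold no base calls, so they do not tell which allele of *Btk* a cell transcribed.

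Libraries were made by SMART-seq2, and total counts per cell lay between 132412 and 1825420. A host gave 45 to 130 cells. No cell name was shared by hosts. The cells had markers of B cells: of 7 markers 6 were detected, with *Cd79a* in 99.5% and *Pax5* in 95.4% of cells, whereas *Ms4a1* had 0 counts in every cell. The LZ part of their label was not checked by markers. Of the 9 T cell markers *Cd3e* had the lowest share, with a count in 0.157% of cells. *Cd28* had the highest, 12.1%, followed by *Lat* with 7.38%. Together the 9 markers reached at most 58.5 CPM in a host. The 8 macrophage and monocyte markers together reached at most 36.5 CPM in a host, although *Adgre1* had a count in 38.1% of cells (8.39 ± 9.08 CPM).

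All 7 kinases were transcribed in LZ B cells, at levels that differed widely. For each host the counts of all its cells were added up and scaled to counts per 1000000 (CPM). The Src-family kinase *Lyn* was at 1005 ± 221 CPM (SD, n = 8 hosts), its inhibitor *Csk* at 918 ± 212 CPM and *Syk* at 477 ± 109.6 CPM. The Tec-family kinases *Tec* and *Btk* were at 743 ± 81.3 and 366 ± 96.6 CPM, and the Src-family kinases *Blk* and *Fyn* at 213 ± 33.5 and 112 ± 34.3 CPM. To compare genes, the CPM was divided by the summed exon length in kilobases. On this scale *Lyn* was at 247 ± 54.3 and *Csk* at 246 ± 56.6 CPM per kb, and their order differed between hosts (*Lyn* higher in 4 of 8, p = 0.91 by an exact test that flips the signs of the 8 within-host differences, here called the sign-flip test). *Tec* came next with 199 ± 21.7 CPM per kb, lower than *Csk* in 5 of 8 hosts, a difference within the spread between hosts (sign flips, exact p = 0.078). *Btk* was at 116 ± 30.7 CPM per kb. *Blk* was at 78.9 ± 12.4, *Syk* at 51.0 ± 11.7 and *Fyn* at 25.7 ± 7.87 CPM per kb. From *Tec* downward each gene exceeded the next in 8 of 8 hosts. The order was taken from these same values, so a p for its steps is no test of it. On this scale *Tec* exceeded *Btk* in each host, by 0.81 ± 0.31 (log2, per kb of exon). The order per kb is approximate, because the exon lengths are those of GENCODE M21 on GRCm38 while the counts were made on GRCm39 and include reads in introns. Per kb of gene body, introns included, *Csk* had the highest value (34.0 ± 7.84) and *Fyn* the lowest (0.570 ± 0.175). There the means of *Btk* (8.87 ± 2.34) and *Tec* (6.59 ± 0.721) stood in the reverse order. The same held for *Syk* (7.27 ± 1.67) and *Blk* (4.82 ± 0.758), so these steps depend on the length used. *Btk* and *Tec* overlap 1 other annotated gene each, *Lyn* 4 and *Fyn* 3, most of them pseudogenes or antisense transcripts, and the counting is not stated to use strand.

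Of 10 other members of the same families, 9 were detected in fewer cells than *Fyn*. The exception, *Lck*, a Src-family kinase best known from T cells, had a count in 51.6% of cells at 269.6 ± 69.7 CPM (SD, n = 8 hosts). The Csk-family kinase *Matk* had a count in 19.6% of cells (68.4 ± 35.2 CPM) and the Src-family kinase *Fgr* in 20.4% (44.8 ± 14.3 CPM). The Tec-family genes *Txk* and *Bmx* had a count in 5.34% and 1.88% of cells, and *Zap70*, the relative of *Syk* used by T cells, in 1.57%.

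In single cells a kinase mostly had either no count or many counts. *Csk* had a count in 93.1% of the 637 cells (95% exact binomial interval 90.8% to 94.9%) and *Lyn* in 92.5% (90.1% to 94.4%). *Tec* had one in 81.2% (77.9% to 84.1%), *Syk* in 77.1% (73.6% to 80.3%) and *Btk* in 71.7% (68.1% to 75.2%). *Blk* had a count in 52.3% (48.3% to 56.2%) and *Fyn* in 33.1% (29.5% to 36.9%). These intervals pool the cells of all hosts as if independent, so they cover the sampling of cells and not the spread between hosts. The counts carry no molecular identifiers. Among hosts the share of *Btk* ran from 65.4% to 82.7%. Where *Btk* was detected the median was 330 counts per cell, or 407 CPM, while 55 of its 457 positive cells had fewer than 10 counts. *Lyn* had a median of 669 counts in positive cells and *Fyn* of 180. Many cells at 0 beside others with high counts were present for *Btk*, *Tec*, *Syk*, *Blk* and *Fyn* in the plot of cells by level. Low counts lay between them to a differing degree. Fewer than 10 counts were found in 43 of 211 positive cells for *Fyn* and 41 of 333 for *Blk*. For *Syk* it was 42 of 491 and for *Tec* 22 of 517. Whether a cell at 0 lacked the transcript or lost it during library preparation was not tested. After each cell was thinned to 459128 counts, the shares moved little, to 70.3% for *Btk*, 93.0% for *Lyn* and 30.0% for *Fyn*.

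**Figure D1:**
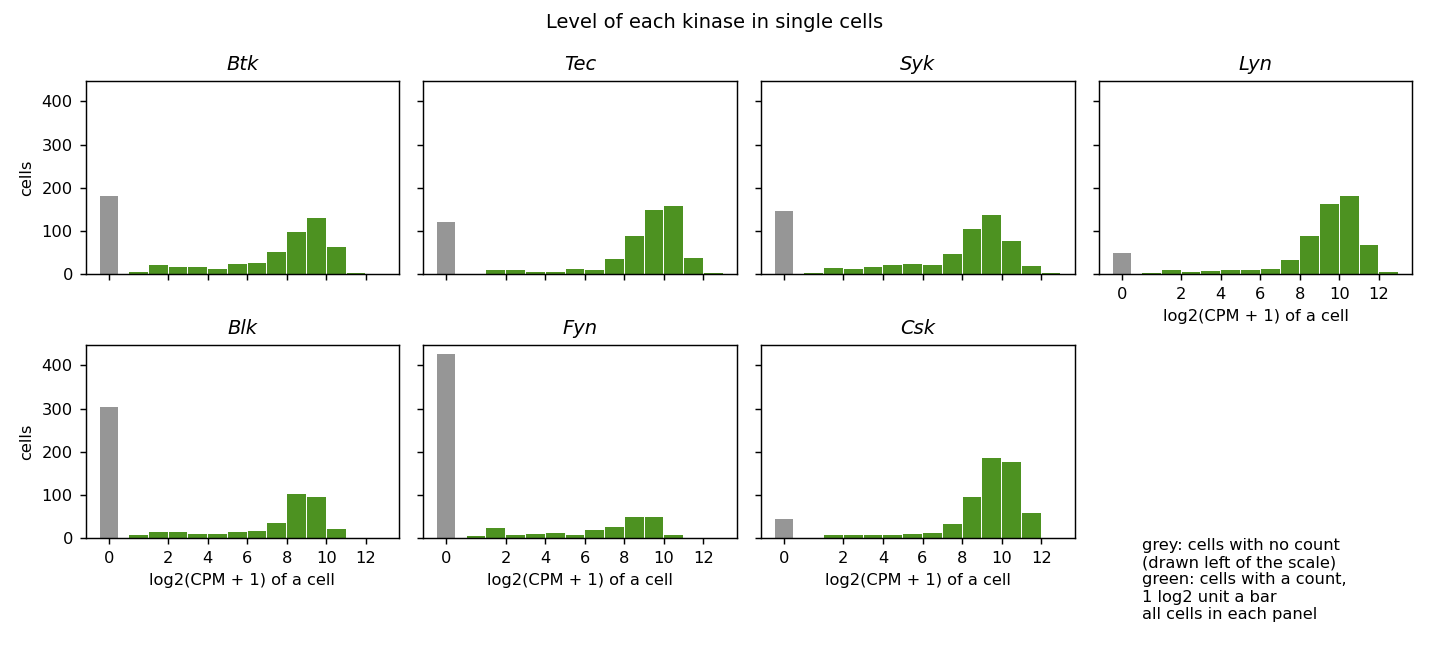
Number of cells (y axis, 637 a panel) by the log2(CPM + 1) of each kinase in the cell (x axis), with cells that have no count in grey and cells with a count in green, 1 log2 unit a bar. *Lyn* and *Csk* have few cells at 0, *Blk* and *Fyn* many (304 and 426), and positive cells peak at high levels in each panel.

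A cell had a count of 5 of the 7 kinases most often (212 cells, 33.3%). All 7 were present in 58 cells (9.11%), 4 cells had 1 kinase and no cell had none, for which a limit of 3 counts in 637 cells allows a share of up to 0.471%. Detection of the related kinases *Btk* and *Tec* was close to what their shares give. Of the 180 cells without *Btk*, 144 (80.0%) had *Tec*, against 81.6% of the cells with *Btk*, and 36 cells (5.65%) had neither. At least 1 of the genes with a cysteine codon at the aligned position (*Btk*, *Tec* and *Blk*) was detected in 617 cells (96.9%). At least 1 of the Src-family genes *Lyn*, *Blk* and *Fyn* was detected in 614 cells. *Lyn*, *Syk* and *Btk*, which act in this order in the pathway, were all detected in 341 cells (53.5%).

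Measured levels of the kinases correlated weakly across cells. The scale of r was narrow here, as the closest of 5703 other genes reached only 0.14 (*Blk*) to 0.26 (*Lyn*). How far cells with no count lowered r was not tested, so a low r does not show that levels were unrelated. For the 21 pairs, Pearson's r of log2(CPM + 1), centred within host, lay between -0.017 and 0.17 over 637 cells, with a median of 0.041. These values are descriptions of cells that share a library preparation and differ in depth. The pair with the highest r was *Lyn* and its inhibitor *Csk* (0.17), above 0 in 8 of 8 hosts, and it was 0.15 after thinning. Both genes also differed between cell cycle phases, as described below, and the part of phase in this r was not tested. *Tec* and *Lyn* followed with 0.099. *Btk* had its highest value with *Fyn* (0.059), and with *Lyn* it was at -0.011. The number of cells with a count of both genes lay between 0.994 and 1.06 times the product of their shares within hosts. The pair of *Syk* and *Fyn* had the highest of these ratios, with 172 cells against 162. The number of genes detected in a cell moved with *Tec* most. The r of *Tec* with the log2 of this number was 0.19, against 0.10 for *Btk* and between -0.034 and 0.044 for the others.

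**Figure D2:**
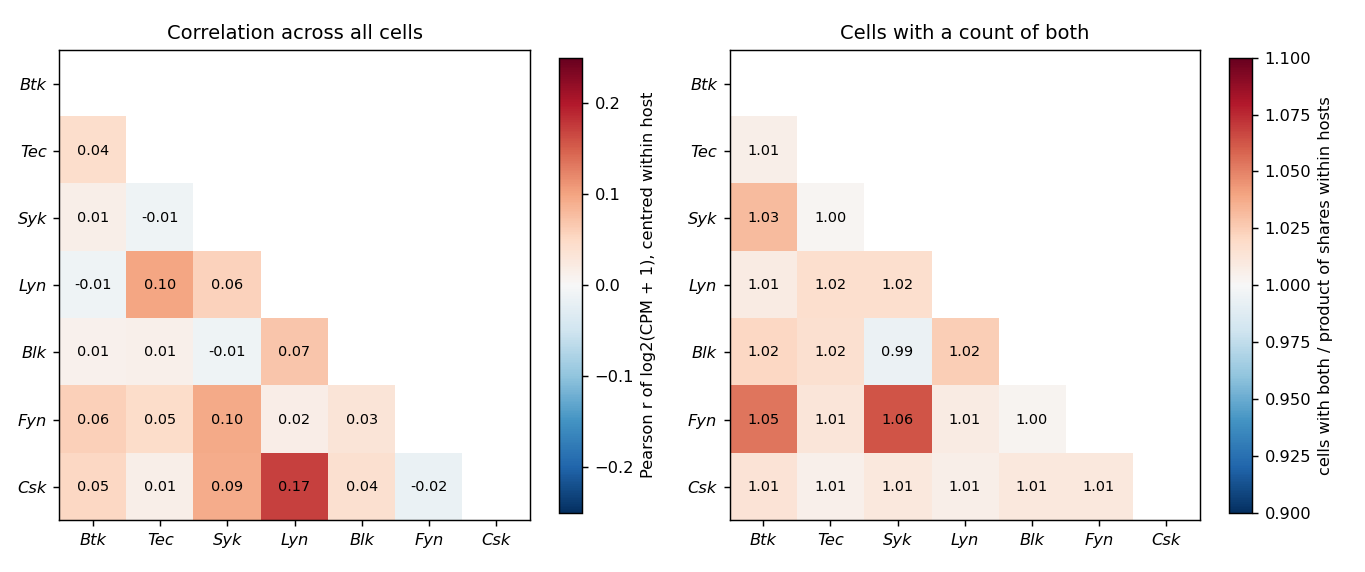
Left, Pearson's r of log2(CPM + 1) centred within host across 637 cells for each pair of kinases. Right, the cells with a count of both genes divided by the product of their shares within hosts. The strongest square is *Lyn* with *Csk* at 0.17, and the ratios on the right stay between 0.994 and 1.06.

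The genes most like each kinase across cells were taken from the 5703 other genes with a count in at least 25% of cells. *Lyn* was most like *Cd79b*, which encodes Igβ (r = 0.26, above 0 in 7 of 8 hosts), *H2-DMb2*, a chaperone of antigen loading on MHC class II (0.21), and *Ebf1*, a B cell transcription factor (0.19). Among the genes most like *Csk* were *mt-Nd5*, a mitochondrially encoded subunit of complex I (0.21), and *Pou2f2*, which encodes the B cell factor OCT2 (0.20). *Tec* was most like *Cyfip2*, a subunit of the WAVE complex (0.19), *Ect2*, which acts in cytokinesis (0.17), and *Cops5* (0.17). *Btk* was most like *Srpk3* (0.17), *Gtf2a2* (0.16) and *Mybl1* (0.16). *Syk* was most like *Anxa2*, *Gm20186* and *Sntg1* (0.16 each), *Blk* like *Xbp1*, *Kmt2c* and *Mycbp2* (0.14 each), and *Fyn* like *Cep112* (0.17), *Tprg* (0.16) and *Sipa1l1* (0.14). The median r of a kinase over the 5703 genes lay between -0.0068 and 0.025. The values of the named genes are low, and no list was tested. Each is among the 3 largest of 5703, and what such a choice gives for unrelated genes was not tested.

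Acalabrutinib and vehicle hosts were compared to ask whether the kinases' transcripts differed between them. The study describes its dose as low, and how far BTK was inhibited in these cells is not known from the counts. The levels of the 7 kinases overlapped between the groups, except for *Tec*. None of the 7 passed the test, and the background was the same: 0% of the 18016 genes tested were called (edgeR quasi-likelihood test, adjusted p under 0.05). At an unadjusted p under 0.05 there were 616 genes and none of the 7, and DESeq2 called 94 genes (0.548%), again none of the 7.

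*Btk*, the target, was at 323, 453, 248, 317 and 312 CPM in acalabrutinib hosts A7, A8, A10, A11 and A12. In vehicle hosts V5, V7 and V9 it was at 470.0, 509.6 and 293 CPM. Hosts V5 and V7 were above all 5 acalabrutinib hosts and V9 was below 4 of them, so the groups overlapped. The log2 difference of acalabrutinib against vehicle was -0.38 ± 0.26 (SE; edgeR, adjusted p = 1.0) and lay between -0.65 without host V9 and -0.23 without host V7. The share of cells with a count of *Btk* was 66.7%, 74.2%, 82.7%, 66.7% and 69.1% in acalabrutinib hosts and 78.9%, 81.8% and 65.4% in vehicle hosts (difference -3.5 percentage points, exact permutation test, p = 0.52).

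*Tec*, the relative of *Btk* with the same cysteine codon, was at 732, 688, 593, 758 and 738 CPM in acalabrutinib hosts. It was at 777, 875 and 787 CPM in vehicle hosts. The 3 vehicle hosts were above all 5 acalabrutinib hosts, and this held for 1 of the 7 kinases. Of 5704 genes with a count in at least 25% of cells, 2.02% did not overlap between the groups in either direction. The log2 difference was -0.23 ± 0.15 (edgeR, adjusted p = 1.0), and the exact two-sided permutation test of log2(CPM + 1) gave p = 0.054, where the smallest possible is 0.018. *Tec* was detected in 78.5% ± 4.12 of the cells of acalabrutinib hosts and 85.2% ± 5.02 of those of vehicle hosts (exact permutation test, p = 0.089). In cells with a count its median level was 793 ± 102 CPM in acalabrutinib hosts and 759 ± 113 CPM in vehicle hosts (exact permutation test, p = 0.64).

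*Syk* was at 549, 673, 401, 390.2 and 449 CPM in acalabrutinib hosts and at 580.4, 395 and 382 CPM in vehicle hosts (log2 difference 0.10 ± 0.26). *Lyn* was at 1219.8, 1271, 785, 734 and 936 CPM against 991, 1269 and 833 CPM (-0.07 ± 0.26). *Csk* was at 914, 1330.4, 837, 671 and 908 CPM against 1112, 822 and 749 CPM (0.04 ± 0.26). Each of these 3 genes ranged more widely among acalabrutinib hosts than the group means differed. Host A8 had the highest *Syk*, *Lyn* and *Csk* of all 8 hosts and also the highest share of cells called G1 (58.4%), whose part in these values was not tested.

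*Blk* was at 256, 202, 173, 234 and 215 CPM in acalabrutinib hosts and at 256, 173 and 194 CPM in vehicle hosts (0.04 ± 0.21). *Fyn* was at 174, 119, 86.5, 108 and 112 CPM against 141, 93.2 and 62.4 CPM (0.25 ± 0.34). Adjusted p in edgeR was 1.0 for each of the 7, and the 7 exact permutation tests of the share of cells with a count gave p between 0.089 and 0.95. The median log2 difference of the 7 was 0.04, beside 0.02 over all 18016 genes. Cells called G1 made up 53.3%, 58.4%, 38.5%, 34.2% and 38.3% of the cells of acalabrutinib hosts A7, A8, A10, A11 and A12. In vehicle hosts V5, V7 and V9 they made up 33.8%, 45.5% and 32.3%, so the groups overlapped. Within G1 cells alone none of the 7 passed either, while the log2 difference of *Btk* there was -0.60 ± 0.39 (edgeR, adjusted p = 1.0). Nor did any gene of the pathway lists, with 0 of 13 genes of the receptor, co-receptor and adaptors, 0 of 17 effectors, 0 of 17 regulators and 0 of 8 related kinases tested. The hosts come from 2 independent experiments that the labels do not assign to hosts, so a difference between experiments and one between hosts cannot be told apart.

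**Figure D3:**
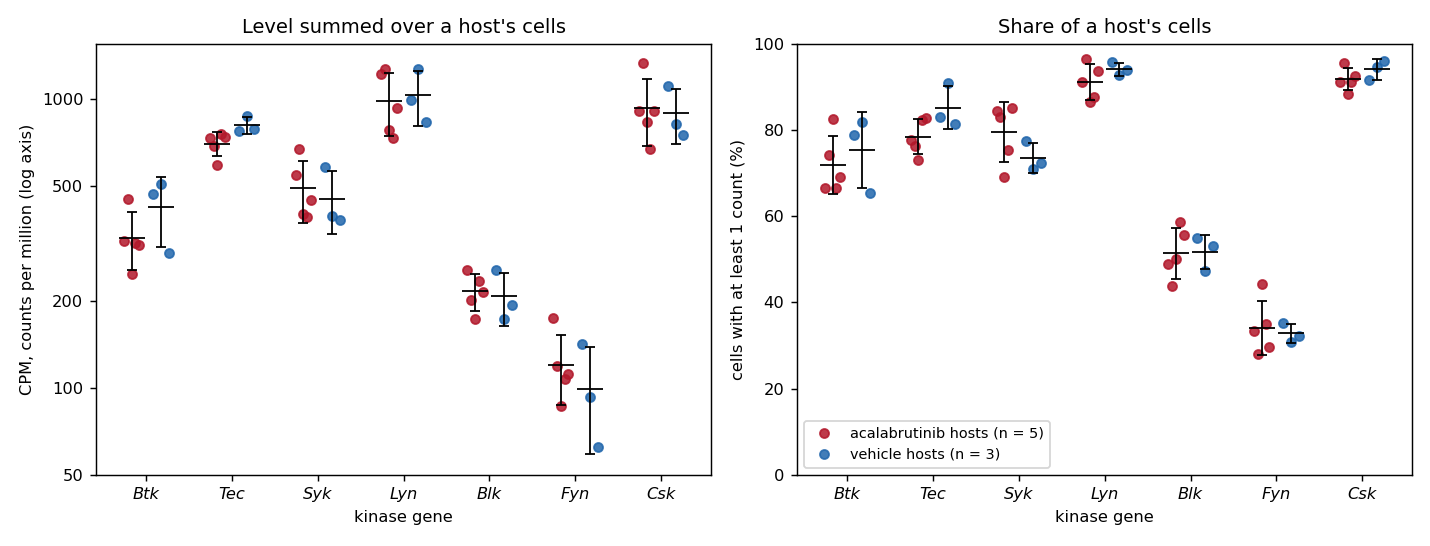
Left, CPM of each kinase summed over the cells of a host (log axis). Right, the percent of a host's cells with at least 1 count. Points are hosts, 5 acalabrutinib in red and 3 vehicle in blue, with mean and SD in black. Only for *Tec* on the left do the vehicle hosts (777 to 875 CPM) all lie above the acalabrutinib hosts (593 to 758 CPM).

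LZ B cells that have been selected re-enter the cell cycle, and kinase levels were compared between phases within hosts. The phase of a cell was called by Seurat from 43 genes of S and 54 of G2/M, none of them a kinase described here. There were 257 cells in G1, 219 in S and 161 in G2/M, and 13 cells lay within 0.02 of the limit between G1 and the others. *Lyn* and *Csk* fell in both S and G2/M. *Tec* was lower in S in each host but not in G2/M. The level of *Btk* differed by -0.19 ± 0.21 in S and -0.06 ± 0.21 in G2/M (log2, SE). Neither *Tec* nor *Btk* was called.

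*Lyn* was at 925 to 1605 CPM in the G1 cells of the 8 hosts (median 1244), at 683 to 1292 in S (median 815) and at 593 to 1045 in G2/M (median 823). In each host both S and G2/M lay below G1, which held in G2/M for 1 of the 7 kinases (*Lyn*) and for 4.28% of the 5704 genes with a count in at least 25% of cells. The log2 difference was -0.54 ± 0.09 for S (SE; edgeR with host as a block, adjusted p = 0.0013) and -0.57 ± 0.09 for G2/M (adjusted p = 0.00078). The call held without each host in turn (adjusted p between 0.0012 and 0.0073), and was lost without the host block (adjusted p = 0.097 and 0.053). The share of cells with a count of *Lyn* was 92.4% ± 6.07 in G1 (SD, n = 8), 90.9% ± 5.53 in S and 92.7% ± 8.68 in G2/M, differences below the spread between hosts (sign flips, exact p = 0.54 and 0.95).

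*Csk*, the inhibitor of LYN, was at 742 to 1673 CPM in G1 (median 1213), 601 to 1045 in S (median 653) and 487 to 1068 in G2/M (median 755). It was lower than in G1 in 7 of 8 hosts in each phase, and host A10 was the exception in both. The log2 difference was -0.64 ± 0.14 for S (edgeR with host as a block, adjusted p = 0.020) and -0.68 ± 0.14 for G2/M (adjusted p = 0.011). Its call in S was lost without host A7, A8, A12, V7 or V9 (adjusted p between 0.051 and 0.086, log2 difference between -0.75 and -0.54 over all 8 omissions). Its call in G2/M was lost without V7 (adjusted p = 0.053). Both calls were lost without the host block (adjusted p = 0.090 and 0.059).

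The 2 kinases of 7 called in each phase stand beside 0.429% of all 17932 genes tested that were lower in S and 0.68% that were lower in G2/M. DESeq2 also called both genes in both phases, where it called 4.9% and 6.01% of genes lower. The median log2 difference of the 7 was -0.63 in S and -0.42 in G2/M. Over all genes tested it was -0.12 and -0.17, and over the 5703 genes with a count in at least 25% of cells -0.05 and -0.04. CPM is a share of a cell's counts, so less kinase RNA and more of other RNA in a cell cannot be told apart. B cell markers moved the same way: their summed level was 6327 to 9321 CPM in G1, 5179 to 6749 CPM in S and 4424 to 6166 CPM in G2/M, and 5 of 6 tested fell in S and 4 of 6 in G2/M, among them *Ebf1* (-0.47 ± 0.09 and -0.76 ± 0.09). G1 cells were also shallower, with a median of 687239 counts against 864718 in S and 875899 in G2/M, and both calls held after thinning. The part of these differences in the change of *Lyn* and *Csk* was not tested.

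*Tec* was at 630 to 969 CPM in G1 (median 795), 401 to 767 in S (median 485) and 609 to 1195 in G2/M (median 911). S was below G1 in 8 of 8 hosts. The log2 difference, -0.63 ± 0.16, missed the threshold (edgeR with host as a block, adjusted p = 0.054). It passed without host V5 (adjusted p = 0.014), with upper quartile scaling (0.028), after thinning (0.048), without the host block (0.019) and in DESeq2 (0.0025), which called 4.9% of genes lower in S. It missed without each of the other 7 hosts (adjusted p between 0.071 and 0.18), with no filter on low counts (0.074) and with phases called from the mean levels of the lists (0.16). Of 5704 genes with a count in at least 25% of cells, 3.56% were lower in S in all 8 hosts, and of the 7 kinases 3 were (*Tec*, *Lyn* and *Blk*). Between G2/M and G1 *Tec* differed by 0.14 ± 0.16 (adjusted p = 0.82). The comparison of G2/M with S was added after these values were seen. *Tec* was higher in G2/M by 0.77 ± 0.16, which missed the threshold in edgeR (adjusted p = 0.10) and passed in DESeq2 (adjusted p = 0.00012) and in edgeR without the host block (adjusted p = 0.026). In edgeR 0.112% of genes were called in either direction, and in DESeq2 5.58%. Without host V5, where G2/M was at 609 CPM and S at 767, the difference was 0.92 (edgeR, adjusted p = 0.020). Without any other single host it lay between 0.67 and 0.84 (adjusted p between 0.13 and 0.41), and with phases from the mean levels of the lists it was 0.70 (adjusted p = 0.36).

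*Btk* was at 153 to 614 CPM in G1 (median 399), 245 to 526 in S (median 310) and 192 to 534 in G2/M (median 342). The phases overlapped widely, with log2 differences of -0.19 ± 0.21 in S and -0.06 ± 0.21 in G2/M (edgeR with host as a block, adjusted p = 0.84 and 0.96). The value in S ranged from -0.36 without host A7 to -0.084 without V7. More G2/M than G1 cells had a count of *Btk*, 84.0% ± 10.1 against 66.8% ± 10.8 (higher in 7 of 8 hosts, sign flips, exact p = 0.016, and after thinning 8 of 8, p = 0.0078). *Tec* was detected in 87.7% ± 7.53 of G2/M and 76.8% ± 8.13 of G1 cells (7 of 8 hosts, sign flips, exact p = 0.016, after thinning p = 0.070). Such a rise was common before thinning: of 5704 genes 40.4% were detected in more G2/M than G1 cells in at least 7 of 8 hosts. The median difference was 8.49 percentage points. This background was not computed after thinning. Of 21 comparisons of shares between states, 3 had an exact p under 0.05.

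The other 3 kinases had lower means outside G1 without passing. *Blk* had a median of 254 CPM in G1, 156 in S and 195 in G2/M, and was lower in S in 8 of 8 hosts (-0.69 ± 0.27, edgeR, adjusted p = 0.30). In host A7 it was at 413 CPM in G1 and 109 CPM in S, and without A7 the difference was -0.45. *Fyn* had a median of 136, 67.9 and 102 CPM (-0.92 ± 0.44 in S, adjusted p = 0.46, and -0.42 ± 0.45 in G2/M). *Syk* had a median of 508, 369 and 440 CPM (-0.55 ± 0.20 in S, edgeR, adjusted p = 0.23, and -0.22 ± 0.19 in G2/M). At an unadjusted p under 0.05, 6 of the 7 kinases were lower in S, the exception being *Btk*, beside 10.9% of all genes in either direction.

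**Figure D4:**
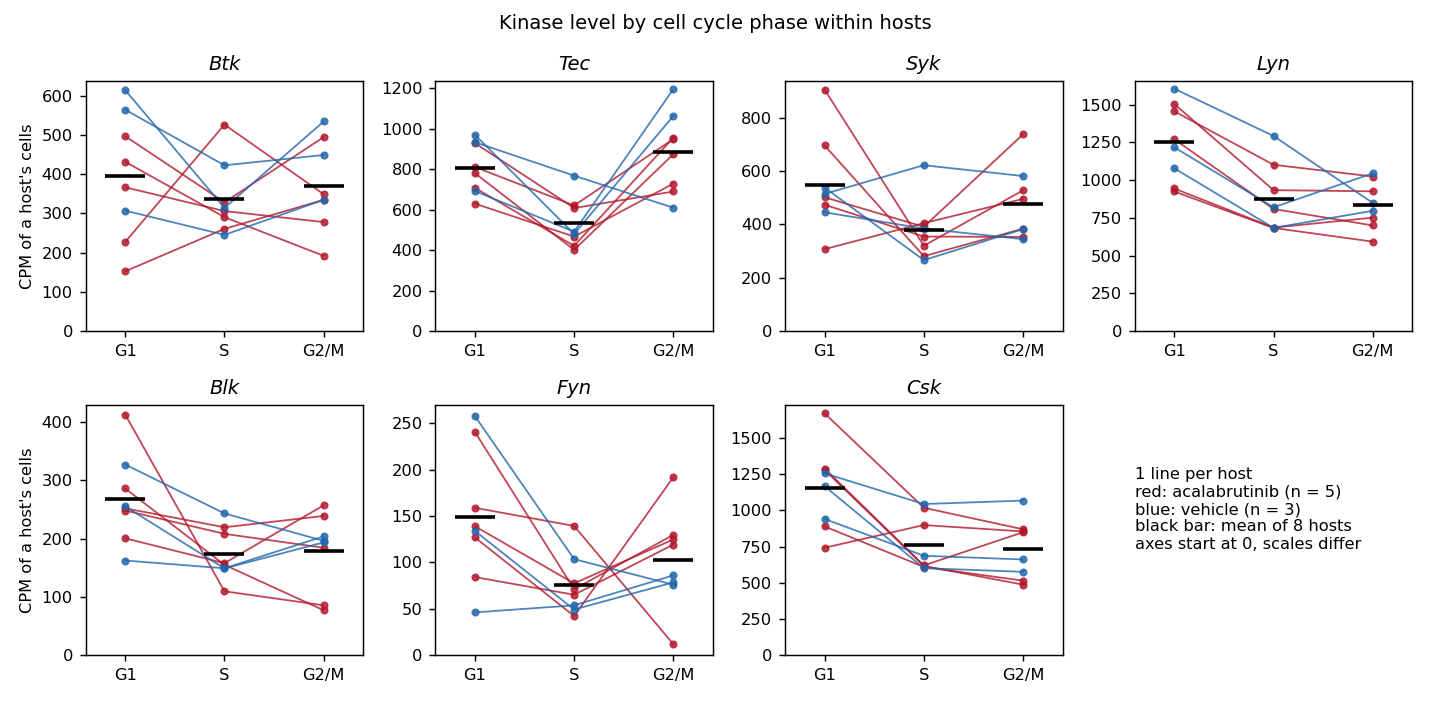
CPM of each kinase (y axis, from 0, scales differ) in the G1, S and G2/M cells of each host, 1 line per host in red (5 acalabrutinib) or blue (3 vehicle), with the mean of 8 hosts in black. *Lyn* lies below its G1 level in S and in G2/M in each host, whereas *Tec* lies below it in S in each host and has a higher mean in G2/M (883 CPM) than in G1 (806 CPM).

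The genes around the kinases in the pathway were read in the same edgeR fits with host as a block, and in none of the alternatives. Of all 17932 genes tested, 0.429% were called lower in S and 0.68% in G2/M. Of 13 genes of the receptor, co-receptor and adaptors, 6 fell in S and the same 6 in G2/M, and none rose. Among them were *Lat2*, which encodes the adaptor NTAL (log2 difference -0.91 ± 0.13 in S and -1.07 ± 0.13 in G2/M), *Cd79b* (-0.44 ± 0.09 and -0.52 ± 0.09), *Cd79a*, which encodes Igα (-0.28 ± 0.06 and -0.30 ± 0.06), *Blnk*, the platform for BTK (-0.34 ± 0.08 and -0.42 ± 0.08), and *Pik3ap1*, which encodes the adaptor BCAP (-0.51 ± 0.13 and -0.63 ± 0.13). Adjusted p of these in edgeR lay between 7.1e-05 and 0.043, and *Cd79a* and *Cd79b* are also among the B cell markers above. Of 17 effectors downstream, 1 fell in S and 2 in G2/M, and none rose. *Itpr2*, a calcium channel of the endoplasmic reticulum, fell in both phases (-0.83 ± 0.19 and -1.19 ± 0.19). Of 17 tested regulators of the kinases, *Ptpn6*, which encodes the phosphatase SHP-1, fell in both phases (-0.38 ± 0.09 and -0.57 ± 0.09). *Ptprc*, which encodes CD45, the phosphatase that opens Src-family kinases against CSK, fell in G2/M (-0.57 ± 0.12). None of the 9 tested relatives of the kinases passed in either phase.

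MYC is the transcription factor that drives growth and division of GC B cells once T cells have helped them, and its transcript is found in a part of LZ cells. Kinase levels were compared within hosts between the 177 cells with at least 1 count of *Myc* and the 460 cells with none. *Lyn* and *Btk* had the largest differences, both lower in *Myc*-positive cells, and neither passed. None of the 7 was called, beside 0.0238% of the 21032 genes tested (5 genes). At an unadjusted p under 0.05 there were 2011 genes, among them *Lyn* and *Btk*, and DESeq2 called 8.73% of genes and none of the 7.

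*Lyn* was at 783 to 1332 CPM in *Myc*-negative cells (median 1069) and at 473 to 1226 CPM in *Myc*-positive cells (median 657). It was lower in *Myc*-positive cells in 8 of 8 hosts, with a mean difference of -0.51 ± 0.46 on the log2(CPM + 1) scale (SD, sign flips, exact p = 0.0078). In edgeR the log2 difference was -0.57 ± 0.16 (SE, adjusted p = 0.38). Of 5704 genes 2.72% were lower in *Myc*-positive cells in all 8 hosts, and of the 7 kinases 1 was (*Lyn*). The widest gap was in host A7 (1332 against 473 CPM), which had 5 *Myc*-positive cells, and without it the edgeR difference was -0.40.

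*Btk* was at 245 to 544 CPM in *Myc*-negative cells (median 330) and at 252 to 302 CPM in *Myc*-positive cells (median 283). It was lower in *Myc*-positive cells in 7 of 8 hosts, and host A10 was the exception (-0.44 ± 0.41, SD, sign flips, exact p = 0.016). The levels of *Myc*-positive cells lay close together across hosts. The difference came with the level in *Myc*-negative cells, which was above 480 CPM in hosts A8, V5 and V7. These hosts had only 13, 14 and 6 *Myc*-positive cells. In edgeR the log2 difference was -0.50 ± 0.16 (adjusted p = 0.46). *Btk* was detected in 65.5% ± 9.78 of *Myc*-positive and 74.3% ± 8.64 of *Myc*-negative cells (lower in 7 of 8 hosts, sign flips, exact p = 0.12).

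The other kinases differed less over all cells. The edgeR log2 difference was -0.14 ± 0.11 for *Tec*, -0.19 ± 0.13 for *Csk*, -0.26 ± 0.35 for *Fyn*, -0.03 ± 0.14 for *Syk* and -0.02 ± 0.19 for *Blk* (adjusted p between 0.66 and 0.99). Leaving out 1 host moved *Fyn* between -0.41 (without A10) and -0.03 (without A8), *Tec* between -0.20 (without A11) and -0.05 (without V9), and *Csk* between -0.29 (without V7) and -0.12 (without V9). *Syk*, *Blk* and *Tec* changed sign with the scaling. Over the 5704 genes with a count in at least 25% of cells the median was -0.22 with TMM scaling and -0.06 with upper quartile scaling, and over all genes tested -0.72 and -0.62. Relative to the -0.22, *Lyn*, *Btk* and *Fyn* lay below the median gene and *Syk*, *Blk*, *Tec* and *Csk* above it. *Csk* was detected in slightly more *Myc*-positive cells (96.0% ± 4.43 against 91.7% ± 2.53, 7 of 8 hosts, sign flips, exact p = 0.016). The median total was 890495 counts in *Myc*-positive and 751578 in *Myc*-negative cells. After thinning it was detected in more *Myc*-positive cells in 7 of 7 hosts. Before thinning, 23.9% of 5704 genes were detected in more *Myc*-positive cells in at least 7 of 8 hosts, with a median difference of 5.44 percentage points. No such background was computed after thinning. The summed level of 6 germinal center markers was also lower in *Myc*-positive cells, at 1504 to 2267 CPM against 2323 to 2997 CPM, and its part in the differences was not tested. No gene of the pathway lists passed.

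Within G1 cells, where *Myc*-positive and *Myc*-negative cells could be compared in 5 hosts, the differences were other than over all cells of 8 hosts. Hosts A7, V5 and V7 had fewer than 5 *Myc*-positive G1 cells and were left out. The restriction to G1 and the loss of these hosts cannot be told apart. *Lyn* was at -0.81 ± 0.28, *Csk* at -0.68 ± 0.21, *Tec* at -0.56 ± 0.23 and *Fyn* at -0.74 ± 0.83, all lower than over all cells, whereas *Btk* was closer to 0 (-0.31 ± 0.31). *Blk* was at -0.35 ± 0.38 and *Syk* at 0.07 ± 0.23. None of the 7 passed (edgeR, adjusted p between 0.62 and 1.0, 0 of 15123 genes called, 1010 at an unadjusted p under 0.05, among them *Lyn*, *Csk* and *Tec*). The median gene with a count in at least 25% of cells was also lower there, at -0.36.

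**Figure D5:**
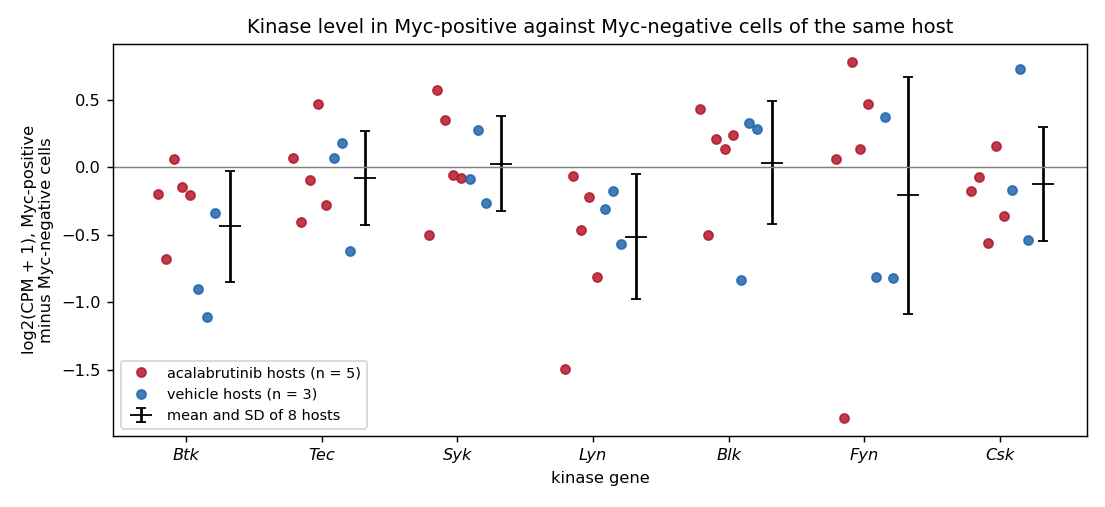
Difference of each kinase between the *Myc*-positive and *Myc*-negative cells of a host on the log2(CPM + 1) scale (y axis), 1 point per host in red (5 acalabrutinib) or blue (3 vehicle), with mean and SD of 8 hosts in black. All 8 hosts lie below 0 for *Lyn* and 7 of 8 for *Btk*, while the other kinases scatter around 0.

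Whether these differences within hosts depended on treatment was tested as an interaction. None of the 7 kinases passed for S, G2/M or *Myc*, where 0% of 20618, 20618 and 21032 genes were called (598, 641 and 417 genes had an unadjusted p under 0.05, none of them a kinase described here). The largest of the 3 values for *Btk* was in S, where the difference from G1 was higher in acalabrutinib hosts by 0.60 ± 0.43 (edgeR, p = 0.18). For *Myc*-positive cells it was higher by 0.55 ± 0.31 (edgeR, p = 0.10). *Lyn* had interaction terms of -0.05 ± 0.19 in S and -0.08 ± 0.19 in G2/M, both smaller than their errors.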

How the data were processed

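Single LZ GC B cells were sequenced by SMART-seq2, and the hosts named in the labels were the replicates. Per the labels and the study's methods, the authors aligned reads with STARsolo 2.7.10a to GRCm39 and deposited whole-number counts, not normalized, of reads in exons and introns, collapsed where their positions were identical. Amplified copies that start elsewhere count again. The submitters' notes also name GRCm38, without a role. Members and lists were chosen with earlier results of these data known. The genes named are the 7 kinases, list genes past the threshold (at most 6 a list, with the relatives of the kinases in full) and the 3 genes most like each kinase. A few genes that this rule names are not reported here.

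Counts of a host, or of a host and state with at least 5 cells, were added up and tested with edgeR 4.0.16 in R 4.3.3 (quasi-likelihood, TMM, filterByExpr, Benjamini-Hochberg over all genes tested, threshold 0.05). Host was a block for states, since both states come from the same animal. Phases came from Seurat 5.3.0. Single kinases were compared by exact tests on log2(CPM + 1), which understates changes of low values, or on shares: two-sided permutation of treatment among hosts (56 splits), and sign flips within hosts. The p-values of single kinases are not adjusted. Alternatives were DESeq2 1.42.0, upper quartile scaling, no filter, thinning to 459128 counts (64 shallower cells left out), phases from the mean levels of the phase lists, S and G2/M as 1 state, G1 cells alone, at least 10 counts of *Myc*, no block and leaving out each host. Python 3.11.15, NumPy 2.4.6, SciPy 1.17.1, pandas 2.3.3 and Biopython 1.88 served for the rest. The edgeR tests of treatment and of *Myc* were tried on simulated data. The fits of phases and interactions and those in DESeq2 were not. Host totals lay between 26778559 and 114987280 counts. Codons were read from GENCODE M21 coding sequences (GRCm38) and placed by protein alignment. One cell was sorted per well and doublets were not searched for. No deposited cell failed the study's cell filter, and whether cells were discarded before the deposit is not known.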

Additional observations from a re-analysis of the deposited data

Results flagged for a closer look

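Of 35 groups of values examined (levels and shares among the 5 acalabrutinib hosts, and differences between states over the 8 hosts), 1 held a host far from the others, where chance gives about 1 in 20. In host A7 the log2 difference of *Blk* between S and G1 cells was -1.91, and its gap to the nearest host was 0.575 of the whole range, above Dixon's limit for 8 values. Host A7 had 9 S cells, the fewest of any host.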

How the results depend on the processing

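Of 746 alternative values 645 stayed the same. For a difference this means the same direction and side of the threshold. For a count of genes or kinases passing it means an equal or similar count. *Lyn* in S and G2/M kept its call in each alternative except without the host block. DESeq2 called more genes than edgeR in each comparison run with both, 94 against 0 for treatment, 1901 against 369 for S, 2066 against 419 for G2/M, 1000 against 20 for G2/M against S and 1551 against 5 for *Myc*. Kinases passing, 2 in S and in G2/M, became 1 and 0 without the replicate block, and 1 with S and G2/M cells as 1 state (*Lyn*), where *Tec* was at -0.18. For G2/M against S, an added comparison, they went from 0 to 1 (*Tec*) in DESeq2 and without the block. For *Myc* the genes called were 1 with upper quartile scaling, 1 with no filter, 23 without the block, 2 with at least 10 counts of *Myc* (7 hosts) and 0 within G1 (5 hosts). Some signs changed, also where the main value was not near 0. For treatment *Fyn* went from 0.25 in the main fit to -0.00020 after thinning and -0.0035 within G1. The differences of shares went with thinning from -2.95 to 0.169 (*Lyn*), -0.352 to 0.683 (*Blk*) and 1.26 to -1.42 (*Fyn*) percentage points. For *Myc*, upper quartile scaling gave 0.034 (*Tec*), 0.14 (*Syk*) and 0.15 (*Blk*), DESeq2 0.064 (*Syk*) and 0.075 (*Blk*), no block 0.077 (*Syk*) and 0.031 (*Blk*), and for *Syk* at least 10 counts gave 0.012 and G1 cells 0.070. Leaving out 1 host gave 1 to 3 kinases in S, 1 to 2 in G2/M and 0 to 1 in G2/M against S, with 4 to 15 genes called in the last and 0 to 2 for *Myc*. For treatment it gave -0.070 to 0.37 (*Syk*), -0.27 to 0.11 (*Lyn*), -0.080 to 0.27 (*Blk*), -0.050 to 0.64 (*Fyn*) and -0.14 to 0.28 (*Csk*), and for shares -2.60 to 1.54 (*Blk*) and -1.27 to 2.76 (*Fyn*) points. It gave -0.20 to 0.10 for *Btk* in G2/M, -0.080 to 0.050 (*Lyn*) and -0.061 to 0.18 (*Blk*) in G2/M against S, and -0.11 to 0.076 (*Syk*) and -0.052 to 0.12 (*Blk*) for *Myc*. The cause of these changes was not tested. With 8 hosts, 3 of them vehicle, an absent call says little, and the lowest levels (*Fyn*, *Blk*) had the widest errors.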
